A study of Mus musculus with 6 samples.

Results

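A set of callus cells rich in the secreted glycoprotein Chil1 and the iron-carrier-binding protein Lcn2 was examined in single-cell RNA sequencing (scRNA-seq) of healing mouse femoral fractures. The cells were chosen by their unique molecular identifiers (UMIs, each counting 1 captured transcript). A barcode was taken when it held at least 3000 UMIs with at most 10% from mitochondrial (mt-) genes, at least 5 UMIs of Chil1 and at least 5 of Lcn2 and Hp together. It also had to hold fewer than 3 UMIs of Ihh (a signal of prehypertrophic cartilage), fewer than 3 of the neutrophil granule genes Ltf, Ngp and Camp together, and at most 1 each of Ptprc (leukocytes) and Cdh5 (endothelium). In all, 234 of the 46944 deposited barcodes met the rule, out of 30589 that passed the UMI and mt- limits. Chil1, Lcn2 and Hp chose the cells, so their levels are given as a description only.

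Callus tissue was collected at 14 days post-fracture (dpf) from 12-week-old mice after a right femoral fracture. 3′ (10x) libraries came from Piezo1f/f mice (3 libraries, labelled wt and called control here) and from Piezo1Col2a1 mice (3 libraries, called knockout here). The labels do not say how many mice stand behind a library and the study's text gives differing numbers of mice, so p-values measure the spread between libraries. The knockouts carry a tamoxifen-inducible Cre driven by Col2a1, which is active in cartilage cells, together with the floxed Piezo1 allele. The deposited labels write their genotype as Col2CreERT; Piezo3-/-, whereas the study's text names Piezo1. Tamoxifen at 75 mg/kg was given to knockouts and controls alike, on 5 consecutive days from day 5, to induce the deletion in the knockouts. The libraries held between 57626530 (knockout library 1) and 103784364 UMIs (knockout library 2).

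Chondrocytes build the soft callus from type II collagen and aggrecan, stop dividing, enlarge, mineralize and are replaced by bone. Under inflammatory signals such as interleukin-1, chondrocytes are known to shift from making matrix to secreting enzymes that cut it, among them Mmp3 and Mmp13, together with acute-phase proteins and complement. Chil1 and Lcn2 are secreted by stressed chondrocytes in culture, and both are also neutrophil products. For that reason the rule removed cells with granule transcripts.

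The cells were spread very unevenly over the libraries. Control libraries 1, 2 and 3 gave 5, 7 and 187 cells, and knockout libraries 1, 2 and 3 gave 33, 0 and 2. Control library 3 thus supplied 79.9% of the cells and knockout library 1 another 14.1%. The same 2 libraries stood apart in their fibroblasts: those with Saa3 or Cxcl5, defined by at least 5 UMIs of both together and 1 of Pdgfra, made up 11.3% of filtered barcodes in control library 3 and 21.4% in knockout library 1, and between 0.0134% and 0.327% in the other 4. These fibroblasts also had to hold fewer than 5 UMIs each of Chil1, Epyc and Ucma, and to meet the limits on Ihh, granule genes, Ptprc and Cdh5. These limits are absolute UMI numbers, and the median depth per filtered barcode was 8463.5 UMIs in control library 3 and 31531 in knockout library 1. With the limits applied after each barcode was thinned to 3000 UMIs, these fibroblasts numbered 473 of 6822 and 114 of 1629 barcodes, so no order is read between those 2 libraries. Among the filtered barcodes, 85 sequences occurred in more than 1 library, and 3 of the 234 cells had a barcode also seen elsewhere. The mice were described as male, yet knockout library 3 held Xist at 747 CPM (UMI counts scaled to the same total in every library and class) in its endothelial cells and no Ddx3y. The other 5 libraries had Ddx3y at 80.7 to 143 CPM and Xist at no more than 0.415 CPM. Knockout library 3 gave 2 of the cells, and results with and without it are stated where it enters.

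The word chondrocyte was checked against cartilage transcripts, with each cell thinned to 3000 UMIs. In control library 3 the median cell held 6 UMIs of Col2a1, the main cartilage collagen, against 113.5 in chondrocytes expressing Epyc or Ucma and 0 in endothelial cells. In knockout library 1 the medians were 12, 214 and 4. Acan, the cartilage proteoglycan, had at least 1 UMI in 56.7% and 81.8% of the cells, against 99.1% and 98.9% of the Epyc or Ucma chondrocytes and 15.4% and 48.0% of endothelial cells of the same libraries. Of 33 cartilage-matrix genes, 24 in control library 3 and 28 in knockout library 1 stood at 10 CPM or more and at 2 or more times their endothelial level. Cartilage transcripts were therefore above the level in endothelium and well below that of Epyc or Ucma chondrocytes in the libraries that gave most cells. Here they are named by their leading genes, Chil1 and Lcn2 cells.

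**Figure D1:**
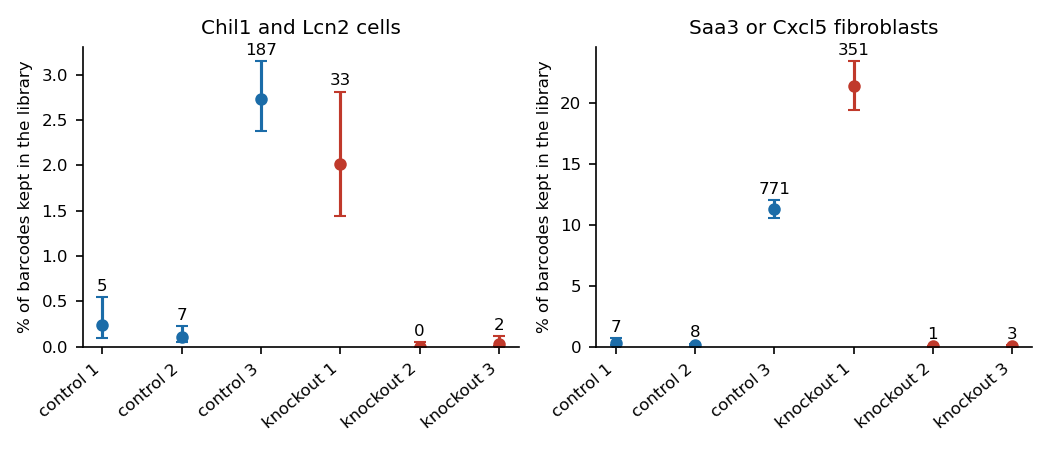
Percent of filtered barcodes in each library (vertical axis) that were Chil1 and Lcn2 cells (left) or Saa3 or Cxcl5 fibroblasts (right); points are libraries, bars are 95% Wilson intervals, numbers are cells, controls are blue and knockouts red. Control library 3 (2.73%) and knockout library 1 (2.01%) hold most Chil1 and Lcn2 cells and also most of the fibroblasts, and the other 4 libraries are at or below 0.234% and 0.327%.

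The upstream sequences of Lcn2, Mmp3, Mmp13 and C3 are shown first, as examples from the rule (Lcn2) and from the genes compared below. They were picked among windows that hold at least 1 match, and the other windows searched are named after them. Each is the 250 bases before the RefSeq transcript start in GRCm38.p6, written 5′ to 3′ on the gene's strand. Lcn2 lies on the minus strand at chr2:32387740-32387989, Mmp3 on the plus strand at chr9:7445572-7445821, Mmp13 on the plus strand at chr9:7272264-7272513, and C3 on the minus strand at chr17:57228137-57228386. Capitals mark matches on either strand to the letters TGANTCA (AP-1) and TTGCNNAA (C/EBP). The AP-1 letters occur in 6.75% and the C/EBP letters in 9.57% of 32841 mouse promoter windows of that length.
Lcn2: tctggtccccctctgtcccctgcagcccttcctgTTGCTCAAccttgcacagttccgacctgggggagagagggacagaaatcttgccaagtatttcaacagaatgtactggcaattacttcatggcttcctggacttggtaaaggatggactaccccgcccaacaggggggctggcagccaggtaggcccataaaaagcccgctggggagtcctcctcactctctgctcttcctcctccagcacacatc
Mmp3: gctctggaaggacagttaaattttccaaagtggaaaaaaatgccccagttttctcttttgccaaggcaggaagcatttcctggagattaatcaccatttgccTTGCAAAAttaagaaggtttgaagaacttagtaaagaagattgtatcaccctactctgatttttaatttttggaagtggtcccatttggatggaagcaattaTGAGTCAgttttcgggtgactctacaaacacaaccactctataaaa
Mmp13: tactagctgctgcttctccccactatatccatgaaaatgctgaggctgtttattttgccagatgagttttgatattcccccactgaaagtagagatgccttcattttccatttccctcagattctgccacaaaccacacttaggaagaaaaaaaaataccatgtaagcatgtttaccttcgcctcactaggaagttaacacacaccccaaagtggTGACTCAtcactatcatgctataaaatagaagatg
C3: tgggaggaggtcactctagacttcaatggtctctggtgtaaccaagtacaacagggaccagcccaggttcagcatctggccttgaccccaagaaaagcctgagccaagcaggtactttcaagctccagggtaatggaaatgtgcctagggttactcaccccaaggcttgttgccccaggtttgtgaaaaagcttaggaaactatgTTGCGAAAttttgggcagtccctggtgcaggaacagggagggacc
Mmp3 holds the AP-1 letters 46 bases and the C/EBP letters 148 bases before the start. Mmp13 holds the AP-1 letters 35 bases before its start, C3 the C/EBP letters at 45 and Lcn2 at 216. Of 2 windows listed for Spp1, 1 held no match and the other the C/EBP letters 156 bases before the start, and Saa3, an acute-phase gene, held them at 99. The windows of Chil1 and Asic3 held none of the 4 motifs searched, which also included an NF-kB motif (in 1.41% of windows) and TTCCNGGAA (STAT, in 0.913%), again on both strands; the RefSeq table used held no entry for Hp. A match in letters describes the sequence and was not tested as a binding site.

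The genes that defined the cells varied among libraries. Chil1 stood at 1074, 2217 and 10642 CPM in the cells of control libraries 1 to 3, and at 1979 and 4051 CPM in those of knockout libraries 1 and 3. Lcn2 stood at 548, 744 and 5503 CPM in controls and at 1864 and 397 CPM in knockouts. Hp, the haemoglobin-binding acute-phase protein haptoglobin, stood at 920, 713 and 17366 CPM in controls and 3205 and 1898 CPM in knockouts. Control library 3 was highest for all 3 genes. Just inside the limit, 11 cells had 5 or 6 Chil1 UMIs; 40 barcodes with 3 or 4 met the other limits and stayed outside. Mmp13 was 5009 CPM in the former and 1944 CPM in the latter, and Col2a1 was 52222 and 32707 CPM. These values pool libraries in unequal parts, since control library 3 gave 7 of the 11 and 12 of the 40, so library and limit cannot be told apart. For Lcn2 and Hp together, 4 cells were just inside and 14 just outside, with Mmp13 at 3574 and 1739 CPM.

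Each of Mmp3, Mmp13, Spp1, C3 and Asic3, which the rule did not read, was then compared with the Epyc or Ucma chondrocytes of the same library. These chondrocytes had at least 5 UMIs of Epyc or of Ucma, both cartilage-matrix genes, met the same limits on depth, mt- share, Ihh, granule genes, Ptprc and Cdh5, and were not among the Chil1 and Lcn2 cells. The 19 Chil1 and Lcn2 cells that also had this much Epyc or Ucma stayed out of the class. The chondrocytes numbered 171, 227 and 116 in the controls and 95, 0 and 378 in the knockouts. The 5 genes were selected for description with earlier results of these data known. Only control library 3 and knockout library 1 held at least 10 cells of both classes, so the designed fit rests on 2 libraries, with the library as a block.

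Mmp3 (stromelysin 1, which cuts proteoglycans and activates other matrix metalloproteinases) stood at 0, 1196 and 1861 CPM in the cells of control libraries 1 to 3 and at 1564 and 0 CPM in those of knockout libraries 1 and 3. Epyc or Ucma chondrocytes held 0.421, 11.8 and 31.0 CPM in controls and 81.4 and 0 CPM in knockout libraries 1 and 3. The value in control library 2 came from 1 of its 7 cells, which held 151 Mmp3 UMIs and 9 of Col2a1. Mmp3 was thus high in the 2 libraries with many cells and, outside them, in that single cell. In the 2 libraries it was higher by 5.09 ± 0.64 (log2 fold change ± SE), with an adjusted p of 0.0865 from edgeR's quasi-likelihood test.

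Mmp13, the collagenase that cuts type II collagen, stood at 192, 9091 and 7853 CPM in the Chil1 and Lcn2 cells of the controls and at 4950 and 113 CPM in those of the knockouts. The Epyc or Ucma chondrocytes held 155, 313 and 138 CPM in controls and 211 CPM in knockout library 1. Control library 1 was therefore near the level of its own chondrocytes, and control libraries 2 and 3 and knockout library 1 were far above theirs. In knockout library 3 the value came from 4 UMIs in 1 of its 2 cells. It lay near the chondrocyte levels of the other libraries, and its own chondrocytes are not part of that comparison. The log2 fold change in the 2 libraries was 5.22 ± 0.71 (edgeR adjusted p = 0.0868). Endothelial cells held Mmp13 at 386 CPM in control library 3 and 350 CPM in knockout library 1. Both values were above those of the chondrocytes, so the chondrocyte level here was not above that of an unrelated cell type.

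Spp1 (osteopontin, a phosphoprotein of mineralizing matrix) was the most abundant transcript of the cells in control library 3 and took 9.98% of their UMIs. Its level was 5138, 32002 and 99768 CPM in the controls and 19347 and 3060 CPM in the knockouts. Epyc or Ucma chondrocytes held 1819, 3248 and 3864 CPM in controls and 1725 CPM in knockout library 1, so the Chil1 and Lcn2 cells were higher in each of these 4 libraries. The fitted difference was 4.13 ± 1.20 on the log2 scale (edgeR adjusted p = 0.233). Endothelial cells held Spp1 at 2712 CPM in control library 3 and 1558 CPM in knockout library 1, against 3864 and 1725 CPM in the chondrocytes.

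C3, the central complement component, was the most even of the 5 genes, at 285, 277 and 1178 CPM in controls and 1126 and 1190 CPM in knockouts. Single cells weighed in the small libraries. In knockout library 3, 1 of the 2 cells held 41 C3 UMIs and the other held 1. In control library 1, 1 of the 5 cells held 35. Epyc or Ucma chondrocytes held 25.7, 81.0 and 43.5 CPM in controls and 66.5 CPM in knockout library 1. The 2 groups of cells did not overlap in these 4 libraries. The log2 fold change was 4.45 ± 0.43 (edgeR adjusted p = 0.0791).

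Asic3 (an acid-sensing ion channel known from sensory neurons) was a feature of control library 3. There it stood at 203 CPM (95% exact Poisson interval 187 to 219, counting error only), and 39.6% of cells held at least 1 UMI after thinning, against 0.4% of endothelial cells. In the other libraries it stood at 5.48, 0, 2.89 and 28.3 CPM, from 1, 0, 5 and 1 UMIs; the interval in knockout library 1 was 0.937 to 6.74 CPM. Epyc or Ucma chondrocytes held no more than 2.11 CPM in control libraries 1 to 3 and knockout library 1. Asic3 did not pass the low-count filter of the 2-library fit and was not tested there.

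**Figure D2:**
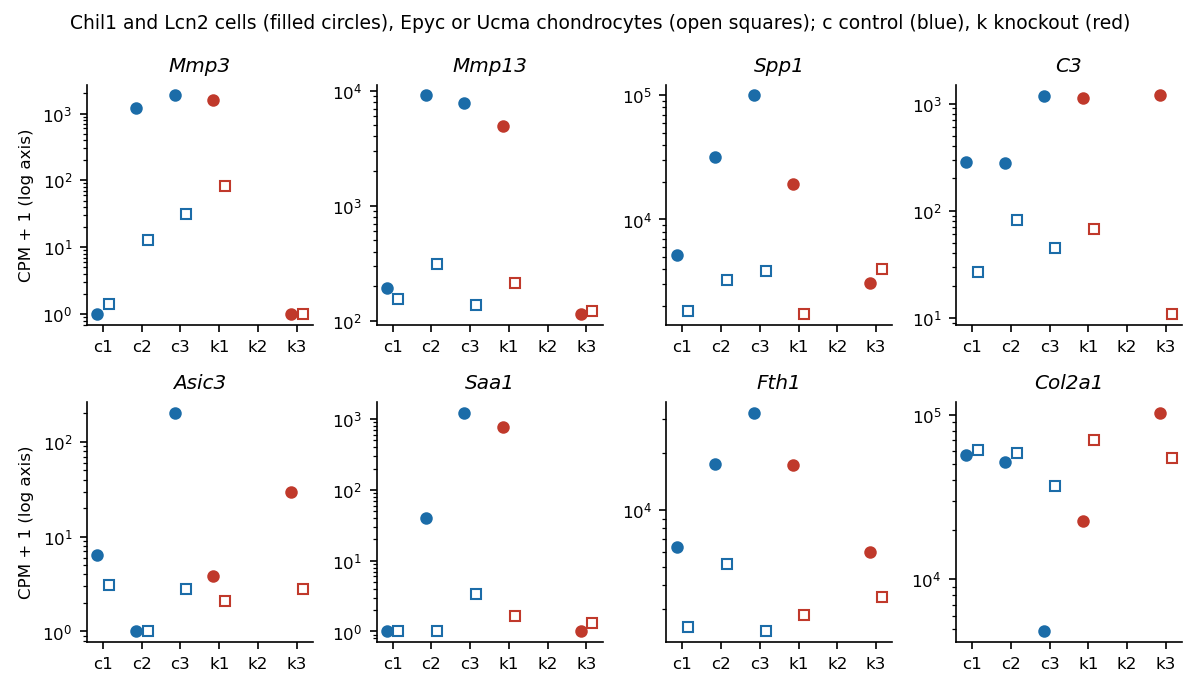
Level of 8 genes in every library, as CPM plus 1 on a log axis, in the Chil1 and Lcn2 cells (filled circles) and the Epyc or Ucma chondrocytes (open squares), with controls (c) in blue and knockouts (k) in red; knockout library 2 held neither class. Mmp3 and Saa1 are high in control library 3 and knockout library 1 and at 0 in control library 1 and knockout library 3, their values in control library 2 come from 1 cell each, Asic3 is high in control library 3, and Col2a1 is lowest in the Chil1 and Lcn2 cells of control library 3.

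Across all genes, the 2-library fit called 0 of 10903 genes at an adjusted p under 0.05 (0% higher and 0% lower), while 1478 genes had an unadjusted p under 0.05 and the smallest adjusted p was 0.0529. On the same sums DESeq2 called 223 genes, 99 higher and 124 lower. After the data were seen, the fit was repeated over the 4 libraries with at least 5 cells of both classes, control libraries 1 to 3 and knockout library 1. It called 81 genes higher (0.683% of 11866 tested) and 110 lower (0.927%). In this 4-library fit Mmp3 was called higher by 5.40 ± 0.50 (edgeR adjusted p = 0.000187), Mmp13 by 4.15 ± 0.76 (0.0175), Spp1 by 3.22 ± 0.52 (0.00911), and C3 by 3.56 ± 0.44 (0.00166). Mmp3 was not higher in each library. Over 12 alternatives to this fit C3 kept its call, while Mmp3 lost it with no library block (edgeR adjusted p = 0.0912). Mmp13 and Spp1 lost theirs without control library 2 (edgeR adjusted p = 0.208 and 0.119) and with limits of 10 UMIs for Chil1 and for Lcn2 plus Hp (0.219 and 0.132). The 10-UMI limits left control library 2 with 4 cells, so it dropped out of that fit too, and the 2 losses are not separate. Asic3 passed the low-count filter through the cells of control library 3, so its call in this fit says no more than the level there. The 4-library fit made 191 calls in all, 42 without control library 2 and 416 without knockout library 1.

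Acute-phase and defence genes had a median far above that of all genes. Of 18 listed, 11 were tested in 4 libraries, and 6 were called higher and 0 lower: Saa1, Saa2, Saa3, Cp, Steap4 and Lbp. The 11 had a median log2 fold change of 2.32, against -0.03 over all genes tested. Saa1, Saa2 and Orm1 had fewer than 10 UMIs in the Epyc or Ucma chondrocytes of every library and passed the low-count filter through the Chil1 and Lcn2 cells, so their tests say no more than the levels. Without them 4 of 8 were called (Saa3, Cp, Steap4 and Lbp) and the median was 2.08. Saa1 and Saa2 encode acute-phase apolipoproteins and are near-identical copies, so reads may have been divided between them. Saa1 stood at 0, 39.6 and 1230 CPM in controls and 765 and 0 CPM in knockouts, and at no more than 2.38 CPM in the Epyc or Ucma chondrocytes of control libraries 1 to 3 and knockout library 1. Endothelial cells held it at 86.2 CPM in control library 3 and 0.415 CPM in knockout library 1. Saa3 stood at 0, 657 and 14283 CPM in controls and at 9683 and 0 CPM in knockouts. Chondrocytes of control library 3 and knockout library 1 held Saa3 at 910 and 242 CPM, below endothelial cells (1334 and 461 CPM). Like Mmp3, both Saa1 and Saa3 were at 0 in the Chil1 and Lcn2 cells of control library 1 and knockout library 3. In control library 2 the same single cell gave all 83 Saa3 UMIs. Steap4, Lbp and Cp were higher in each of the 4 libraries. Steap4, a metalloreductase, was higher by 3.67 ± 0.33, and Lbp, which binds bacterial lipopolysaccharide, by 2.28 ± 0.29. Cp, the copper-carrying ferroxidase ceruloplasmin, was higher by 2.32 ± 0.24, at 416, 602 and 514 CPM in controls and 606 CPM in knockout library 1.

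Complement genes were called in the same direction. Of 18 listed, 12 were tested, and 5 were higher and 0 lower in 4 libraries (median 1.40). C1ra and C1s1, the proteases that start the classical pathway, were higher by 2.10 ± 0.30 and 1.53 ± 0.29 in the same direction in each library. C2 and Cfb, the protease parts of the classical and alternative C3 convertases, were also called, but both were at 0 in at least 1 control library; Cfb stood at 0, 0, 35.2 and 64.7 CPM in the 4 libraries.

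For the inflammatory mediators and regulators, 41 of 42 were tested, and 9 were higher and 0 lower (median 1.05), or 8 of 40 without Ccl20, which the chondrocytes held at fewer than 10 UMIs. In the 2-library fit, which called none, 33 of the 41 had a higher CPM in both libraries, beside 28.3% of all genes tested (29.6% were lower in both). Those 41 include Lif and Ccl20, which had fewer than 10 UMIs in the chondrocytes of both libraries. They passed the filter through the Chil1 and Lcn2 cells. Over the other 39 the median log2 fold change was 1.12, against 1.25 over the 41. Nos2 (inducible nitric oxide synthase) stood at 27.4, 63.4 and 74.3 CPM in controls and at 240 CPM in knockout library 1, and was higher by 4.67 ± 0.49 (edgeR adjusted p = 0.000394), with 0 UMIs in the Epyc or Ucma chondrocytes of control library 3. Ptges and Ptgs2, enzymes of prostaglandin E2 synthesis, were higher by 2.96 ± 0.28 and 1.01 ± 0.21. Cebpb and Cebpd, whose proteins bind C/EBP sites, were higher by 2.07 ± 0.37 and 1.46 ± 0.30. Sod2, the mitochondrial superoxide dismutase, was higher by 1.46 ± 0.28, and the neutrophil-attracting chemokine Cxcl1 by 2.06 ± 0.39. Cxcl5, a related chemokine, divided the 2 main libraries, at 3.94 CPM in control library 3 and 1474 CPM in knockout library 1. It passed no test (log2 fold change 1.01 ± 2.23 in 2 libraries).

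Matrix proteases and their inhibitors gave 5 calls, all higher, among 29 tested of 36 (median 0.44). Beside Mmp3 and Mmp13 they were the aggrecanase Adamts5, and the inhibitors Serpine2 and Timp1. Adamts5 stood at 76.7, 79.2 and 232 CPM in controls and at 231 CPM in knockout library 1, against 21.5 to 28.4 CPM in the Epyc or Ucma chondrocytes (2.62 ± 0.35, edgeR adjusted p = 0.00283). Timp1, an inhibitor of metalloproteinases, was higher by 1.37 ± 0.31. Enzymes and inhibitors were thus both among the called genes.

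Iron, metal and oxidative-stress genes gave 6 calls higher and 2 lower among 17 tested of 19 (median 0.49). Fth1, the ferritin heavy chain that stores iron, stood at 6381, 17415 and 32526 CPM in controls and 17245 CPM in knockout library 1, and was higher by 2.34 ± 0.44 (edgeR adjusted p = 0.0197). The iron exporter ferroportin, Slc40a1, went the other way: 38.3, 79.2 and 19.1 CPM in controls and 69.3 CPM in knockout library 1, against 173 to 288 CPM in the chondrocytes (-2.20 ± 0.32). The zinc and manganese importers Slc39a8 and Slc39a14, the metallothionein Mt2, transferrin (Trf) and Sod3 were the other genes called higher, and Nqo1 was the other called lower.

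Cartilage-matrix genes gave the most calls in the lower direction. Of 30 tested of 34 listed, 5 were lower (Acan, Hapln1, Col11a2, Cilp2 and Pcolce2) and 1 higher (Prg4), with a median of -1.25. In the 2-library fit, which called none, 25 of 30 were lower in both libraries, beside 29.6% of all genes tested. Those 30 include Matn1, which had fewer than 10 UMIs in the Chil1 and Lcn2 cells of both libraries. Over the other 29 the 2-library median was -1.97, against -2.02 over the 30. Hapln1, the link protein that holds aggrecan on hyaluronan, stood at 2251, 1140 and 209 CPM in controls and 1093 CPM in knockout library 1, against 2680 to 4295 CPM in the chondrocytes (-2.01 ± 0.38). Acan was lower in each of the 4 libraries (-1.83 ± 0.40, edgeR adjusted p = 0.0394). Col2a1 varied widely among the Chil1 and Lcn2 cells. It stood at 56756, 51396 and 4823 CPM in controls and at 22620 and 102839 CPM in knockouts, against 36943 to 69911 CPM in the Epyc or Ucma chondrocytes of 4 libraries, and passed no test (-1.23 ± 0.48, edgeR adjusted p = 0.269). Cells of control libraries 1 and 2 lay inside the range of those chondrocytes, and the cells of control library 3 and knockout library 1 below it. The 2 cells of knockout library 3 lay above this range, which does not include the chondrocytes of that library. Prg4, lubricin of the joint surface, stood at 11.0, 214 and 362 CPM in controls and 428 CPM in knockout library 1 (3.13 ± 0.45).

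Hypertrophic and mineralizing genes gave 2 calls of 21 tested, Spp1 and the angiogenic factor Vegfa, both higher (median 0.16). Col10a1, the collagen of hypertrophic cartilage, was at 1117, 71.3 and 924 CPM in controls and 1260 CPM in knockout library 1, near the chondrocyte values (-0.38 ± 0.41, edgeR adjusted p = 0.841). Ibsp (bone sialoprotein) stood at 1309, 2170 and 39069 CPM in controls and at 14032 and 20228 CPM in knockouts, and passed no test. Tnfsf11, the osteoclast-inducing ligand RANKL, was at 11.0, 23.8 and 124 CPM in controls and 117 CPM in knockout library 1, against 5.33 to 7.76 CPM in the chondrocytes (3.31 ± 0.47, edgeR adjusted p = 0.00413). Among growth factors and antagonists, 4 of 28 were lower and 0 higher: the Wnt antagonists Sfrp5 and Frzb, the BMP antagonist Chrdl1 and the receptor Fgfr3. Cdkn1c, a cell cycle inhibitor, was the one call of 13 senescence and cell cycle genes (-1.96 ± 0.28), whereas Apoe, a lipid carrier, stood at 121, 71.3 and 215 CPM in controls and at 129 and 142 CPM in knockouts (0.42 ± 0.28, edgeR adjusted p = 0.632). Of 25 hypoxia and glycolysis genes tested, 1 was called, Ndrg1, which was higher.

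**Figure D3:**
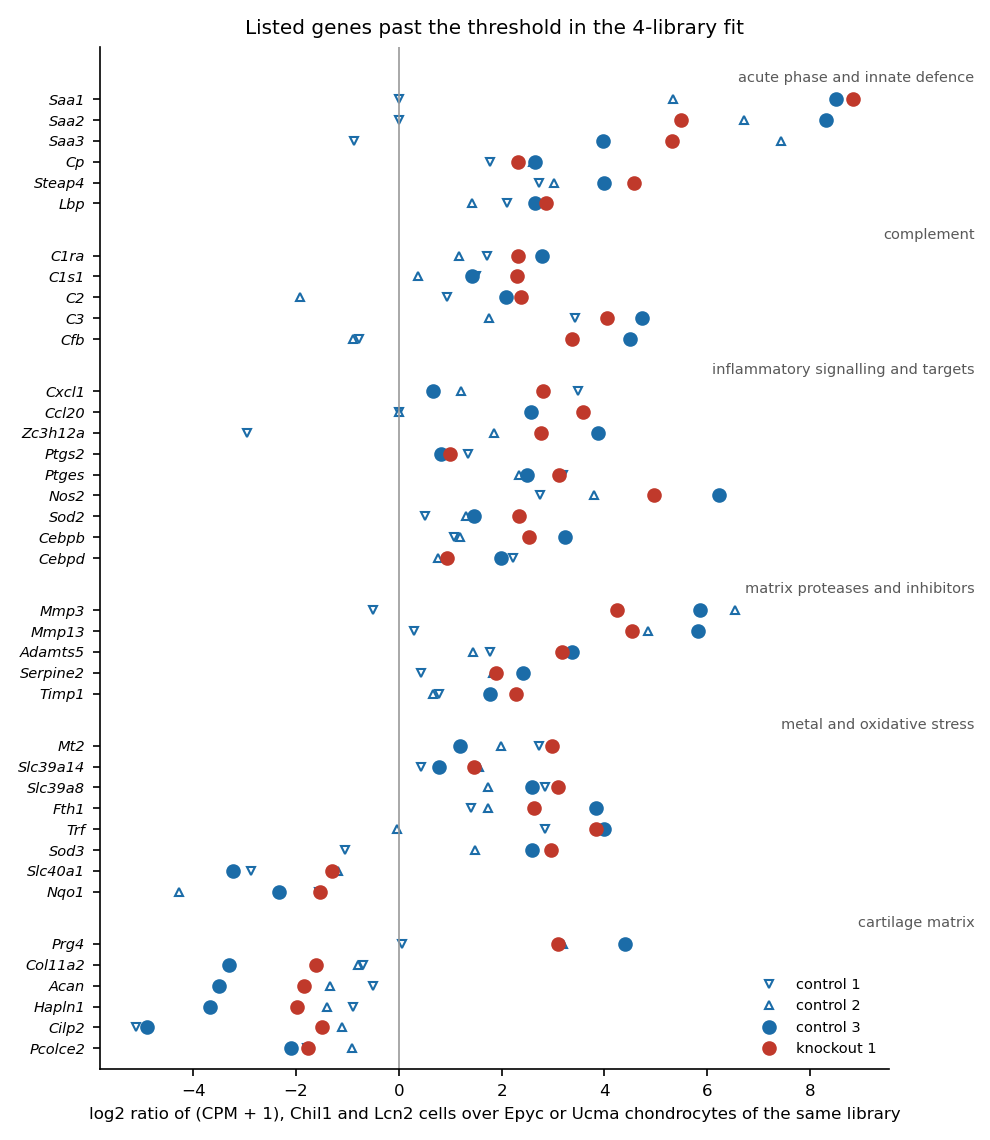
Log2 ratio of CPM plus 1 between the Chil1 and Lcn2 cells and the Epyc or Ucma chondrocytes of the same library (horizontal axis). Genes are those called in the 4-library fit from the acute-phase, complement, inflammatory, protease, metal and cartilage lists, and called genes of other lists are not drawn. Each point is a library, with controls in blue and the knockout in red. Steap4, C3, Nos2 and Adamts5 lie above 0 in each of the 4 libraries, Acan and Hapln1 below 0, and Saa1 lies at 0 and Mmp3 below 0 in control library 1.

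Markers of other cell types were summed in the same 2 libraries. Neutrophil and endothelial sums were limited by the rule, which read Ptprc, Cdh5, Ltf, Ngp and Camp, so low values there are no independent check. The neutrophil list summed to 5790 CPM in control library 3 and 2069 CPM in knockout library 1, almost all of it Lcn2 (5503 and 1864 CPM), also a rule gene. In neutrophils of the same libraries the list summed to 154676 and 87823 CPM, led by S100a9. Endothelial markers summed to 18.4 and 27.1 CPM and macrophage markers to 320 and 214 CPM, against 27.4, 23.5, 324 and 208 CPM in the Epyc or Ucma chondrocytes, whose limits were the same.

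Markers of bone-forming cells and fibroblasts, which the rule did not read, were abundant. The osteoblast and osteocyte list summed to 52629.5 CPM in control library 3, led by Ibsp (39069 CPM), and to 47085 CPM in knockout library 1, led by Col1a1 (17096 CPM), against 49560.3 and 32230.5 CPM in the Epyc or Ucma chondrocytes. Of its 10 genes, 7 and 3 stood at 10 CPM or more and at 2 or more times their endothelial level. Sost, a marker of osteocytes, was at 0 in both. The fibroblast and tendon list summed to 12153 CPM, led by the proteoglycan Dcn (7824 CPM), and to 18739.6 CPM, led by Col3a1 (8477 CPM), against 17139 and 9388 CPM in the chondrocytes. Of its 12 genes, 3 and 8 stood at 10 CPM or more and at 2 or more times their endothelial level. In the 4-library fit 0 of 8 osteoblast markers tested were called, and 1 of 12 fibroblast markers, the small proteoglycan Aspn, was lower. The part of these transcripts in the results was not tested. At the granule step of the rule, 414 barcodes were reduced to 260. Doublet scores were high in 16 cells, all in control library 3; leaving out high-scoring cells left the 2-library count at 0.

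Ihh-expressing hypertrophic chondrocytes, with at least 3 Ihh UMIs, gave a fit with many more calls. The same 2 libraries held 18 and 118 of them. Of 10818 genes tested, 384 were higher (3.55%) and 390 lower (3.61%) in the Chil1 and Lcn2 cells. Acute-phase genes were higher in 9 of 11 tested and lower in 0, with a median of 3.21, and complement genes in 8 of 12. Saa2 and Orm1 had fewer than 10 UMIs in the Ihh cells of both libraries and passed the filter through the Chil1 and Lcn2 cells; without them 7 of 9 acute-phase genes were called, with a median of 2.20. Saa1 stood at 1230 and 765 CPM against 2.90 and 1.60 CPM in the Ihh cells, where control library 3 held 1 UMI of it and knockout library 1 held 10, so no fold is given. Its call is still among the 7 of 9 and says no more than these levels. Mmp3 (4.68 ± 0.42), C3 (4.39 ± 0.38), Mmp13 (2.50 ± 0.36) and Spp1 (2.24 ± 0.31) were all called higher. So were Nos2 (5.87 ± 0.51), Steap4 (4.23 ± 0.36), Adamts5 (3.58 ± 0.32), the activin-binding protein Fst (3.47 ± 0.33) and the cytokine Il6 (3.38 ± 0.41). Il6 was uneven, at 3.94 CPM in control library 3 and 104 CPM in knockout library 1. In the Ihh cells of control library 3, Nos2 and Fst were counted at 3 UMIs each and Il6 at 0, so the sizes of these folds are uncertain.

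Matrix and hypertrophic genes lay on the opposite side of this comparison. Of 32 cartilage-matrix genes tested, 23 were lower and 1 higher (Prg4), with a median of -2.03. Without Matn1, which had fewer than 10 UMIs in the Chil1 and Lcn2 cells of both libraries, 22 of 31 were lower, with a median of -1.99. Of 19 hypertrophic genes, 8 were lower and 1 higher (Spp1). The limits on Ihh set these 2 classes apart, so lower levels of genes that go with Ihh are no independent result. Col10a1 stood at 924 and 1260 CPM, against 13294 and 15883 CPM in the Ihh cells (-3.79 ± 0.31). Col2a1 (-2.20 ± 0.35) and Acan (-2.90 ± 0.36) were lower. Alpl, the mineralizing phosphatase, was lower as well (-1.98 ± 0.29), and Ibsp passed no test (-0.22 ± 0.32). Other genes with large negative values were the protease Pcsk6 (-3.90 ± 0.31), the collagen-processing enhancer Pcolce2 (-3.84 ± 0.34) and Cdkn1c (-3.62 ± 0.34). Aldh1a3, a retinoic-acid enzyme, stood at 0.329 and 6.35 CPM against 107 and 228 CPM in the Ihh cells, and its near-zero level in control library 3 leaves no stable fold to give. Of 9 fibroblast and tendon genes tested, 7 were higher, including Dcn (1.56 ± 0.30) and Postn (1.16 ± 0.29). Growth factors were divided, with 9 higher and 8 lower of 27. Some of these calls were lost in the 4 libraries with at least 5 cells of both classes, a fit made after the data were seen, which called 342 of 9704 genes higher (3.52%) and 405 lower (4.17%). There Mmp13 (2.14 ± 0.80, edgeR adjusted p = 0.131), Col2a1 (-1.18 ± 0.43, edgeR adjusted p = 0.120) and Postn (1.02 ± 0.33, edgeR adjusted p = 0.0805) were not called. Cartilage-matrix genes gave 11 calls lower and 2 higher of 32, with a median of -1.02, and fibroblast genes 3 higher of 10. Acute-phase genes, without Saa2 and Orm1, again gave 7 of 9, Saa1 among them, and complement genes 8 of 12. DESeq2 called 328 genes in this comparison, and edgeR without the library block called 1.

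Saa3 or Cxcl5 fibroblasts came from the same 2 libraries (771 and 351 cells), and carry inflammatory transcripts by their definition. The definition also held them under 5 UMIs each of Chil1, Epyc and Ucma. The Chil1 and Lcn2 cells had no limit on Epyc or Ucma, and 19 of them held at least 5 UMIs of either. The part of this unequal limit in the cartilage-matrix values below was not tested. The 2-library fit called 0 of 13773 genes (0% in either direction); 1674 had an unadjusted p under 0.05, and DESeq2 called 298. Acute-phase genes had a median log2 difference of 2.80 and cartilage-matrix genes of 2.27, higher in the Chil1 and Lcn2 cells, and fibroblast genes a median of -1.87, against 0.00 over all genes. Without Clec3b and Kera, which had fewer than 10 UMIs in the Chil1 and Lcn2 cells of both libraries, the median of the other 9 fibroblast genes was -1.22. Saa4 and Matn1 likewise had fewer than 10 UMIs in 1 class in both libraries. Without them the acute-phase median was 2.67 over 11 genes and the cartilage-matrix median 2.30 over 29. Saa1 stood at 1230 and 765 CPM, against 11.0 and 7.19 CPM in these fibroblasts (6.99 ± 0.30, edgeR adjusted p = 0.0898). Over the 4 libraries with at least 5 cells of both classes, a fit made after the data were seen, 92 of 9971 genes were called higher (0.923%) and 82 lower (0.822%). There 17 of 29 cartilage-matrix genes were higher and 0 lower, among them Col2a1, Hapln1 (3.62 ± 0.47) and Comp (3.41 ± 0.47). Acute-phase genes gave 4 calls of 10, all higher (Saa1, Saa2, Orm1 and Cp), and fibroblast and tendon genes 4 of 10, all lower (Col3a1, Clec3b, Postn and Aspn), of which Clec3b had fewer than 10 UMIs in the Chil1 and Lcn2 cells of every library. This fit called 0 genes without control library 2 and 329 without knockout library 1. Inflammatory mediators had a median of 0.06, which was -0.16 with no scaling factors, where the median of all genes was -0.22. Mmp3 stood at 1348 and 697 CPM and Mmp13 at 2422 and 2463 CPM in the fibroblasts, against 1861 and 1564 CPM and 7853 and 4950 CPM in the Chil1 and Lcn2 cells (1.03 ± 0.28 and 1.57 ± 0.32, neither called).

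Within a library the Chil1 and Lcn2 cells were not uniform. In control library 3, thinned to 3000 UMIs per cell, 50 of 187 cells held at least 5 UMIs of Mmp3 and 156 at least 5 of Ibsp, while 26 held both and 7 neither. Across these cells Spearman's rho between Mmp3 and Ibsp was -0.60. Ibsp went with Col1a1 (0.61) and with Alpl (0.58), and Col2a1 with Comp (0.65). Col2a1 reached 192 UMIs in the highest cell and had a middle range of 2 to 16.5. In knockout library 1, 6 of 33 cells held at least 5 Mmp3 UMIs and 16 at least 5 of Ibsp, with both in 2 and neither in 13. There rho between Mmp3 and Ibsp was -0.31, and Ibsp went with Alpl (0.42) but not with Col1a1 (-0.16), while Col2a1 again went with Comp (0.63). Mmp3 went with Cxcl5 (rho 0.59), Spp1 with Ibsp (0.73) and Col1a1 with Col3a1 (0.77), and Cxcl5 was inverse to Col2a1 (-0.56). These correlations are across cells of 1 library, which share its depth and background RNA, and carry no test.

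**Figure D4:**
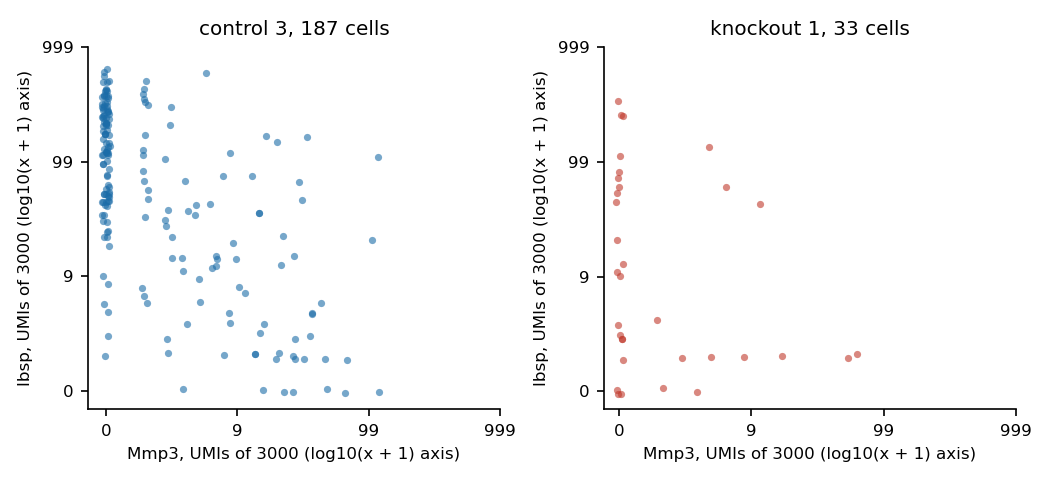
Mmp3 (horizontal) and Ibsp (vertical) UMIs per cell after thinning to 3000 UMIs, both on log10(x + 1) axes with a small random offset, in the 187 cells of control library 3 and the 33 of knockout library 1; each point is a cell. In control library 3 the genes are inverse in rank (rho -0.60), yet 26 of the 50 cells with at least 5 Mmp3 UMIs also hold at least 5 of Ibsp.

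The 14 cells of the other libraries had a higher median of Col2a1 than those of control library 3 and knockout library 1, with exceptions. Thinned to 3000 UMIs they held 3 to 346 Col2a1 UMIs, with a median of 167, against medians of 6 and 12. Without thinning, at 10496 to 49483 UMIs per cell, 13 of the 14 held at least 100 Col2a1 UMIs, as did 40 of 187 cells in control library 3 and 21 of 33 in knockout library 1. Also without thinning, 1 of the 14 held any Mmp3, 1 any Saa3 and 2 any Asic3, and 4 held at least 100 Mmp13 UMIs. All 14 held Spp1, with 32 UMIs in the lowest. Across the whole set, 19 cells also had at least 5 UMIs of Epyc or of Ucma, 3 of them in control library 3. Fewer than 10 cells per library stood behind these values, and cells of 1 library are not replicates.

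**Figure D5:**
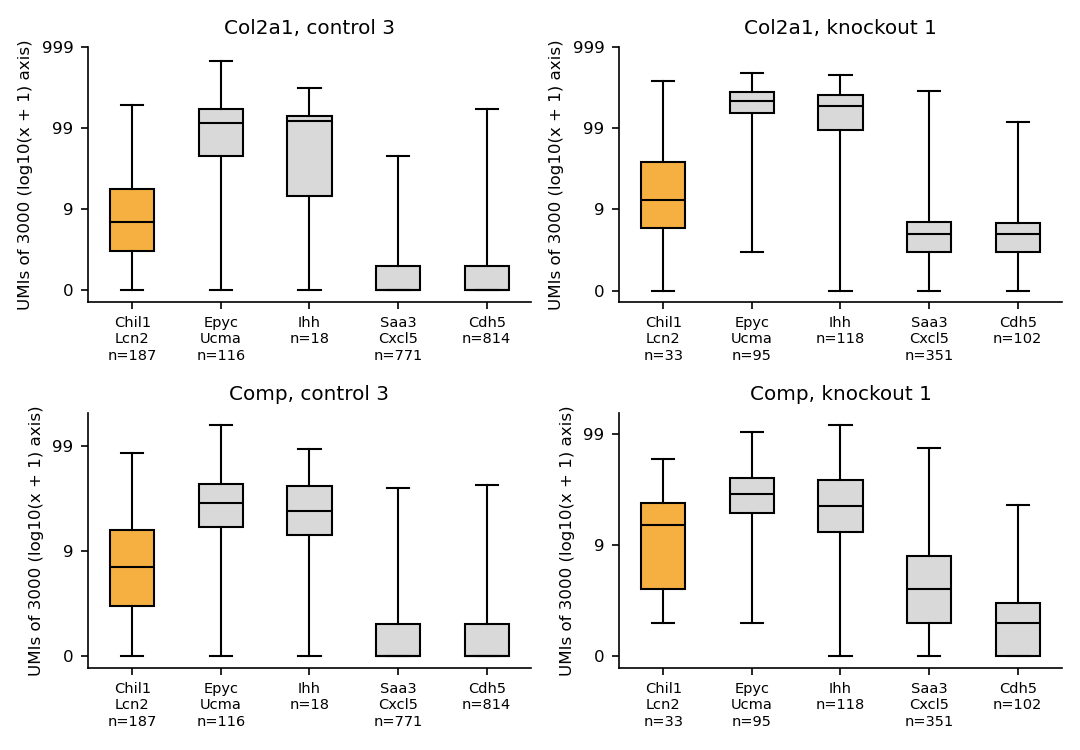
Col2a1 and Comp UMIs per cell after thinning to 3000 (vertical, log10(x + 1) axis) in 5 cell classes of control library 3 and knockout library 1; boxes show quartiles, the line the median, and whiskers the full range. The median Col2a1 count of the Chil1 and Lcn2 cells (6 and 12) lies between those of the endothelial cells (0 and 4) and of the Epyc or Ucma chondrocytes (113.5 and 214).

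The question of the design, whether loss of Piezo1 in Col2a1-expressing cells altered the callus, was asked of the share and of the transcripts of these cells. The share was 0.234% (95% Wilson interval 0.0998 to 0.546), 0.109% (0.0530 to 0.226) and 2.73% (2.37 to 3.15) of filtered barcodes in controls. It was 2.01% (1.44 to 2.81), 0% and 0.0327% (0.00897 to 0.119) in knockouts, where 0 of 7457 barcodes in library 2 allows a share of up to 0.0402% by a limit of 3 counts (Wilson upper bound 0.0515%). The intervals cover counting error only. The group means were 1.03% ± 1.48 (SD, n = 3) and 0.682% ± 1.15 (SD, n = 3). Knockout minus control was -0.344 percentage points, less than either SD (exact permutation over libraries, two-sided p = 0.5; the smallest p this design allows is 0.1). Each group had a single high library, and the groups overlapped. The difference was 0.510 without control library 3 and -0.0195 without knockout library 3. The limits that define the cells are absolute UMI numbers, and depth differed between the libraries as given above. With the limits applied after thinning to 3000 UMIs, the cells numbered 0 of 2137, 3 of 6383 and 174 of 6822 barcodes in controls and 10 of 1629, 0 of 7439 and 1 of 6101 in knockouts. The difference was then -0.656 percentage points (exact permutation, two-sided p = 0.7), so the share in knockout library 1 depends on its depth.

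Piezo1, the targeted mechanosensitive channel, stood at 27.4, 47.5 and 39.4 CPM in the cells of the controls and 65.8 and 28.3 CPM in those of the knockouts. The value in knockout library 3 is 1 UMI. Transcripts are read from their 3′ end, so a deletion elsewhere in the gene need not lower this count, and the level does not check the labels. With libraries of at least 10 cells each group held 1 library, which allows no test. Over the 5 libraries with at least 2 cells, a fit chosen after the data were seen called 2 of 3148 genes higher in knockouts (0.0635%) and 0 lower (0%); 73 genes had an unadjusted p under 0.05, and DESeq2 called 3 genes. Tnmd, a tendon membrane protein, stood at 11.0, 0 and 3.61 CPM in controls and at 150 and 227 CPM in knockouts (5.18 ± 0.70, edgeR adjusted p = 0.0197). Thbs4, a thrombospondin of tendon, stood at 21.9, 39.6 and 10.5 CPM in controls and at 406 and 283 CPM in knockouts (4.19 ± 0.59, edgeR adjusted p = 0.0197). Both genes passed the low-count filter through the knockout libraries, so their calls say no more than these levels. The groups did not overlap for either gene, as for 8.01% of all genes tested in this direction and 5.05% in the other. Without knockout library 3 the fit called 28 genes higher and 0 lower, with 1 knockout library assumed to vary like the controls, and both genes were called (Tnmd 4.89 ± 0.69, Thbs4 4.32 ± 0.62). Without control library 3 neither was called (edgeR adjusted p = 0.137 and 0.130), nor without knockout library 1 (0.441 and 0.353). In endothelial cells Thbs4 stood at 59.8, 47.0 and 28.9 CPM in controls and at 221, 3.25 and 57.6 CPM in knockouts; its part in the result was not tested. Leaving out single libraries gave between 0 and 36 calls, and knockout library 3 supplied 8 Tnmd UMIs and 10 Thbs4 UMIs.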

How the data were processed

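The authors deposited filtered 10x matrices of raw UMI counts per gene and barcode, made per the labels on GRCm38 with Cell Ranger, version 6.1.1 for the 2 libraries numbered 1 and 6.1.2 for the other 4. Replicate 3 of both groups used another gene list, so the 52081 shared gene IDs were analysed. The members and gene lists were chosen with earlier results of these data known. No deposited annotation of cells was used; classes were gated on UMIs as described, with no doublets removed (Scrublet scores served an alternative).

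UMI counts were summed per library and class and tested with edgeR 4.0.16 in R 4.3.3 (filterByExpr, TMM, quasi-likelihood test, Benjamini-Hochberg, threshold 0.05), with the library as a block and the gate genes left out of the test; DESeq2 1.42.0 was an alternative. The library is the replicate. On simulated data for the comparison with Epyc or Ucma chondrocytes, the 2-library fit recovered 90.9% of 4-fold changes among 10439 genes with 13 false calls, and the 4-library fit 93% among 11780 with 4. The simulation gave every gene the same set spread, and every changed gene the same fold in each library. In the data, log2 ratios of Mmp13 ran from 0.304 (control library 1) to 5.82 (control library 3). The rates therefore do not give the power of these fits on the real counts. Shares were compared by a two-sided exact permutation over 20 assignments. CPM scales the UMIs of a class in a library to a common total. Genes named beyond the lists were the 10 with the largest difference in each direction among those called, of 1 direction in every library and at least 50 CPM. Intervals are at 95% and cover counting error only. Median depth was 16054 UMIs per cell in control library 3 and 50153 in knockout library 1.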

Additional observations from a re-analysis of the deposited data

Results flagged for a closer look

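Col3a1, a collagen of fibroblasts and young matrix, was above its chondrocyte level in knockout library 1 and not in the controls, of which libraries 1 and 2 were near it. Its log2 ratio between the Chil1 and Lcn2 cells and the Epyc or Ucma chondrocytes was -0.16, -0.02 and -2.17 in control libraries 1, 2 and 3 and 0.90 in knockout library 1. The difference between the groups was not tested, since 1 knockout library held at least 5 cells of both classes.

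Some barcodes with fewer than 3000 UMIs were left out although they met the gene limits of the rule. In control library 3 there were 19 of them, and in all libraries 20. Whether they also met the mt- limit was not examined. They enter no comparison, and their other transcripts were not examined.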

How the results depend on the processing

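The difference in share was 0.510 without control library 3 and 0.835 without replicate 3 of both groups, -0.656 with the cells defined after thinning to 3000 UMIs, and leaving out single libraries gave -1.01 to 0.510 percentage points. Against Epyc or Ucma chondrocytes, the count of 0 in 2 libraries became 223 with DESeq2, 1 with RLE size factors, 920 with no filter on low counts, 60 with Chil1 and with Lcn2 plus Hp of at least 10 UMIs, 171 with Epyc or Ucma of at least 10, 72 after thinning to 3000 UMIs and 191 in 4 libraries. Those 191 became 654 with no filter, 52 with the 10-UMI limits and 98 with no library block. The 10-UMI limits also left out control library 2, which then held 4 cells. Leaving out single libraries gave 42 (without control library 2) to 416 (without knockout library 1). Against Ihh cells the 2-library count was 328 with DESeq2 and 1 with no library block, and single libraries left out of the 4-library fit gave 211 (without knockout library 1) to 967. Against Saa3 or Cxcl5 fibroblasts it was 298 with DESeq2, 338 with no filter, 2 with the 10-UMI limits and 174 in 4 libraries, and then 0 (without control library 2) to 329 (without knockout library 1). C3 against these fibroblasts turned from 2.03 to -0.28 in 4 libraries, and between -1.46 (without control library 3) and 0.84 (without control library 2) with single libraries left out, 0.73 without control library 1. The cause was not tested in any of these.

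Replicate numbers were not used as pairs. The labels name no pairs of animals, and deviations of same-numbered libraries correlated at 0.46, 0.24 and -0.11, not all above 0.1. The numbers do follow the processing: replicates 1 share a Cell Ranger version, and replicates 3 a gene list. Replicates 1 were also the deepest, with a median of 28605 (control) and 31531 UMIs (knockout) per filtered barcode. With the replicate block the share gave p = 0.75 (exact sign-flip test), and knockout against control 8 calls against 2, where leaving out single libraries gave 0 (without control library 3) to 36 (without control library 1). The medians of the acute-phase, complement, inflammatory, protease and cartilage lists in the 2-library fits kept their sign with RLE and with no scaling factors, except that of the inflammatory list against the fibroblasts (-0.16 with no scaling). Leaving a library out of the 2-library fits left no residual degrees of freedom, and the alternatives planned for knockout against control with at least 10 cells could not be fitted. In control libraries 1 and 2 and knockout library 3, 14 cells limit the precision.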

Other observations

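Over all libraries most barcodes with Chil1 did not meet the rule, whereas in control library 3 most did (187 of 236 with at least 5 Chil1 UMIs). Of the filtered barcodes, 519 held at least 5 Chil1 UMIs, and 426 of these also held at least 5 of Lcn2 and Hp together. In knockout library 2, 39 barcodes met both limits and the Ihh limit, and 0 of them met the limit on neutrophil granule transcripts.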
